A study of Rattus norvegicus with 10 samples.

Results

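Acid sensors of the cell surface were followed in hippocampal mRNA of rats that had been through electrically evoked status epilepticus. The 7 genes were Gpr4, Gpr65 and Gpr132, which code for proton-sensing G protein-coupled receptors, and Asic1, Asic2, Asic3 and Asic4, which code for acid-sensing ion channels and their relatives. They were chosen by gene symbol, with 1 RefSeq row kept for each symbol, the row of highest mean count, out of 32041 features in the matrix. Gpr4 was picked because the values of the stimulated and sham groups did not overlap, so its own contrast between these groups is a description with no test. The other 6 genes were chosen as its relatives, and 5 of them had a row with enough counts to be tested.

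mRNA sequencing compared 5 sham operated rats with 5 rats given amygdala stimulation, to ask which hippocampal transcripts differ in acquired epilepsy. All 10 were male Sprague-Dawley rats, an outbred strain, and all carried a bipolar electrode in the left lateral nucleus of the amygdala and screw electrodes on the skull. After 2 weeks of recovery the stimulated rats received 60 Hz trains of pulses of 400 µA for 30 min or somewhat longer, and the ensuing status epilepticus was stopped with 20 mg/kg diazepam. The sham rats were matched for age and received no current, and no diazepam is mentioned for them. Tissue was taken 3 months after status epilepticus from the left hippocampus, as a piece that held CA3 and the dentate gyrus. By the paper's methods, rats of this model were anesthetized with carbon dioxide before decapitation. They also state that every stimulated rat enrolled had spontaneous seizures. The part of either in the levels given here was not tested. Each library came from 1 rat, so the spread within a group is that between animals. The rats are called by their numbers in the labels, sham 1 to 5 and stimulated 6 to 10.

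The libraries held 13552309 to 24086059 counts aligned to features. The share of reads not aligned ran from 32.8 to 37.1% in sham rats and was 35.6, 32.0, 41.4, 42.9 and 45.1% in stimulated rats 6 to 10. Levels are given as CPM, counts scaled to 1 common library size, with library sizes adjusted by the trimmed mean of M values (TMM), with the mean ± SD of 5 rats, and differences as log2 fold changes of stimulated over sham from an edgeR quasi-likelihood fit over 22447 features. With Benjamini-Hochberg adjustment over all of them, 0% of features had an adjusted p below 0.05 and the lowest adjusted p was 0.376. At an unadjusted p below 0.05, 6.7% of the features had higher and 3.16% had lower levels after stimulation. The groups did not overlap in 0.695% of features in the higher and 0.597% in the lower direction, and the median log2 fold change over all tested features was 0.01. Transcripts known from the dentate gyrus and CA3 were present in every rat, with Prox1 at 21.3 to 52.0 CPM and Grik4 at 138.4 to 166.9 CPM.

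Extracellular pH falls with intense neuronal firing and with local metabolic load, and cells read it by different routes. Gpr4, Gpr65 and Gpr132 belong to 1 family of receptors, of which Gpr4 and Gpr65 couple to Gs and cyclic AMP when protons bind to their extracellular histidines. Gpr4 is known mainly from endothelial cells of blood vessels, where acid drives an inflammatory programme through it, and Gpr65 and Gpr132 are known from lymphocytes and macrophages. Acid-sensing ion channels are trimers of the same superfamily as the epithelial sodium channel and let sodium into neurons when extracellular pH drops. Asic1 is the main proton-gated subunit of central neurons, Asic2 joins it and alters its gating and placing, Asic3 is known best from sensory neurons, and Asic4 forms no proton-gated channel when expressed alone.

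Gpr4 stood at a mean of 2.59 ± 0.420 CPM in sham rats and 6.80 ± 2.78 CPM in stimulated rats. In the sham rats the transcript NM_001025680 had 35, 31, 53, 62 and 74 counts, which is 2.04, 2.37, 2.89, 2.56 and 3.10 CPM in rats 1 to 5. In the stimulated rats it had 80, 155, 83, 133 and 215 counts, which is 3.62, 7.20, 5.30, 6.78 and 11.1 CPM in rats 6 to 10. The lowest stimulated rat therefore lay above the highest sham rat, and stimulated rat 10 was the highest of all. This separation, found in 0.695% of all features in the same direction, is what Gpr4 was picked for.

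The fitted log2 fold change of Gpr4 was 1.38 with a standard error of 0.26, a fold of 2.61. The gap between the groups was narrow at its edge, since stimulated rat 6 was 1.17 times sham rat 5. The exact Poisson 95% intervals of these 2 libraries, which cover counting error only, were 2.87 to 4.51 CPM and 2.44 to 3.89 CPM and overlapped each other. The order at the edge was the same under other scalings, with 3.60 against 3.10 CPM for the relative log expression factors of DESeq2 and 3.76 against 3.26 CPM for aligned counts alone.

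Gpr4 also varied more among stimulated rats than among sham rats. The highest stimulated rat was 3.07 times the lowest, and the highest sham rat was 1.52 times the lowest. On the log2 CPM scale the SD was 0.58 among stimulated and 0.23 among sham rats. The stimulated rats 7, 9 and 10, which were the 3 with the most Gpr4, were also those with much Fos (106.3, 50.3 and 61.7 CPM), whereas rats 6 and 8 had 5.61 and 5.24 CPM of Fos, beside 3.26 to 5.32 CPM in the sham group. Fos codes for an AP-1 factor made within minutes of neuronal activity. The part of recent activity and of the unaligned share in the Gpr4 difference was not tested.

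**Figure D1:**
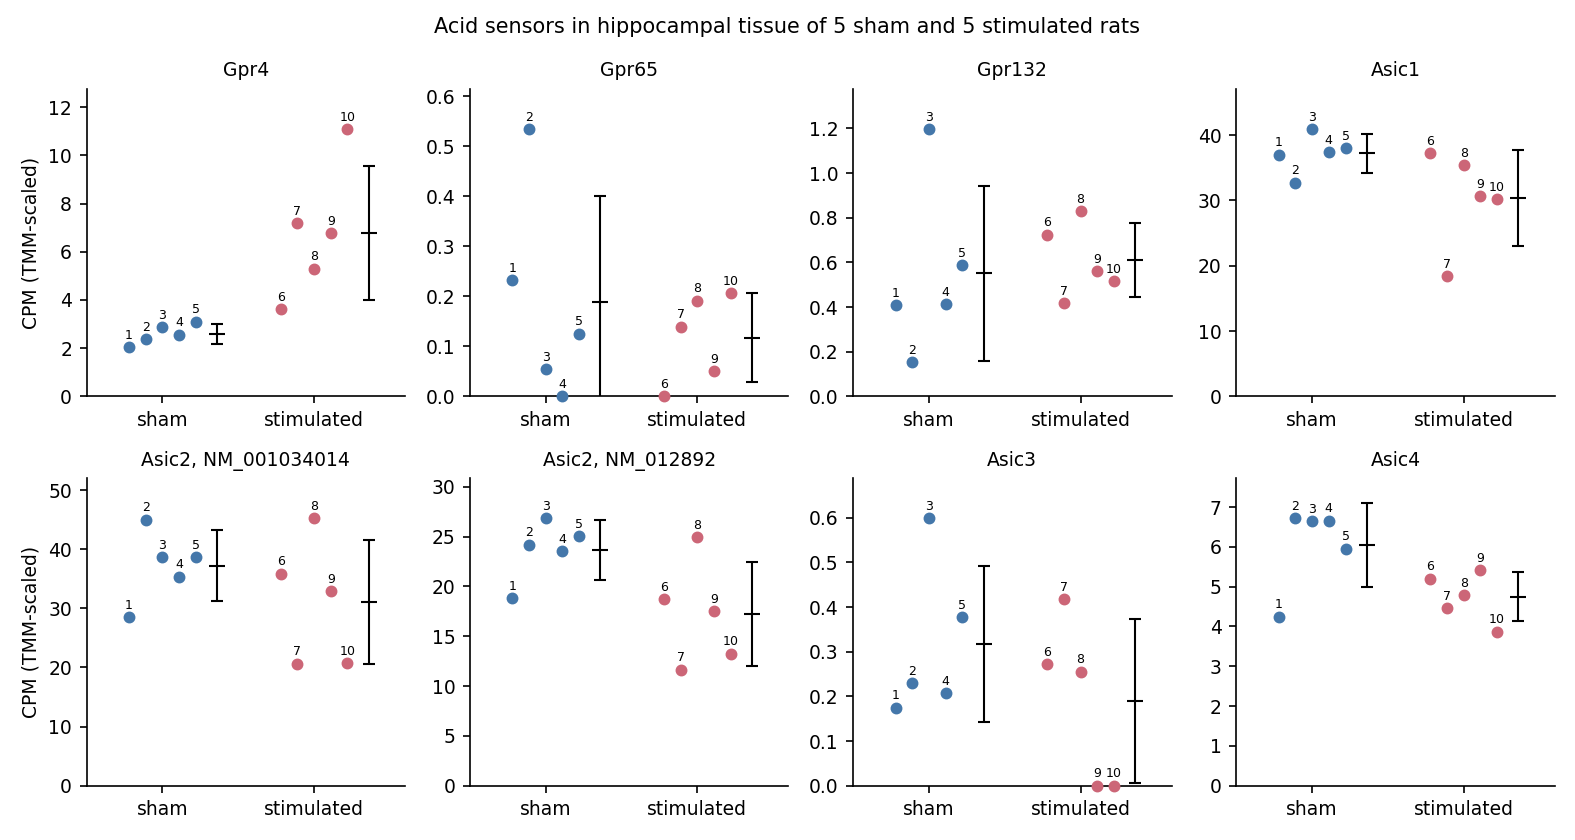
Each panel plots 1 acid sensor row on its own vertical axis in TMM-scaled CPM, with 1 point for each sham (blue) and stimulated (red) rat and the group mean ± SD in black (n = 5 each, bars cut off at 0). Gpr4 is the 1 gene whose groups do not overlap, with sham rats at 2.04 to 3.10 CPM and stimulated rats at 3.62 to 11.1 CPM.

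The receptors of the same family gave few reads. Gpr65, known from T cells and macrophages, had 26 counts in all 10 libraries together and was below the filter on low counts. Without that filter its log2 fold change was -0.59 (adjusted p = 0.862 by edgeR). It had 4, 7, 1, 0 and 3 counts in sham rats and 0, 3, 3, 1 and 4 counts in stimulated rats. No difference was detectable at this depth, where a count of 0, read against a floor of 3 counts, allows up to 0.124 CPM in sham rat 4 and 0.136 CPM in stimulated rat 6. Galc, the lysosomal galactosylceramidase, has a row of its own and overlaps the span of Gpr65 in the GRCr8 annotation. Whether their exons overlap was not looked up, and the counting is not stated to use strand. Reads from any stretch that both transcripts cover could therefore belong to either gene.

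Gpr132, a receptor of macrophages and lymphocytes that also responds to lipids, had 114 counts in all. Its levels were 0.407, 0.153, 1.20, 0.413 and 0.587 CPM in sham rats and 0.724, 0.418, 0.830, 0.561 and 0.516 CPM in stimulated rats. All the stimulated rats lay inside the range of the sham rats. The log2 fold change was 0.12 (SE 0.47, 95% interval -0.89 to 1.12, adjusted p = 0.956 by edgeR), an interval that holds a fall and a rise of nearly the same size. Without sham rat 2 it was -0.10, and without stimulated rat 8 it was -0.03.

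The acid-sensing channels had fold changes below 1 in all 4 genes, as 10731 of the 22447 tested features had, and none passed the test. In the row kept for each symbol no Asic gene had an adjusted p or an unadjusted p below 0.05, beside 0% and, for the lower direction, 3.16% of all features, and the groups overlapped in each. Of the 5 tested genes other than Gpr4, 0 had an unadjusted p below 0.05 in the edgeR quasi-likelihood test, and 0 an adjusted p below 0.05 by edgeR's exact test. DESeq2 gave an adjusted p for Asic1, Asic2 and Asic4, none of them below 0.05, and none for Gpr132 and Asic3.

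Asic1, the main proton-gated subunit of brain neurons, had 37.0, 32.7, 40.9, 37.4 and 38.0 CPM in sham rats and 37.3, 18.4, 35.4, 30.7 and 30.2 CPM in stimulated rats. Stimulated rat 7 was the lowest, while stimulated rats 6 and 8 were within the sham range. The means were 37.2 ± 2.94 and 30.4 ± 7.35 CPM. The log2 fold change was -0.29 (SE 0.16, 95% interval -0.63 to 0.04, adjusted p = 0.553 by edgeR). Without stimulated rat 7 it was -0.17.

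Asic4, the subunit without a proton-gated current of its own, had 4.25, 6.72, 6.64, 6.66 and 5.95 CPM in sham rats and 5.20, 4.46, 4.79, 5.41 and 3.87 CPM in stimulated rats. Sham rat 1 lay among the stimulated rats, and the other 4 sham rats lay above all 5 of them. The log2 fold change was -0.35 (SE 0.17, 95% interval -0.71 to 0.01, unadjusted p = 0.0578, adjusted p = 0.520 by edgeR). Without sham rat 1 it was -0.46, with an unadjusted p of 0.0127 and an adjusted p of 0.556 by edgeR.

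Asic3 was at the limit of detection, with 50 counts in all. It had 3, 3, 11, 5 and 9 counts in sham rats and 6, 9, 4, 0 and 0 in stimulated rats. Stimulated rats 9 and 10 had no read, where a count of 0 allows, by the same floor of 3 counts, up to 0.153 and 0.155 CPM. Its log2 fold change was -0.72 with a wide 95% interval of -2.35 to 0.91 and an adjusted p of 0.782 by edgeR.

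Asic2 was represented by 2 RefSeq rows of 1 gene, which showed different sizes of change. The row of higher count, NM_001034014, had 28.5, 45.0, 38.6, 35.4 and 38.7 CPM in sham rats and 35.9, 20.7, 45.2, 32.9 and 20.7 CPM in stimulated rats. Stimulated rats 7 and 10 were low and stimulated rat 8 was the highest of all 10. Its log2 fold change was -0.26 (SE 0.20, 95% interval -0.70 to 0.18, adjusted p = 0.690 by edgeR). It was -0.16 without stimulated rat 7, -0.15 without stimulated rat 10 and -0.45 without stimulated rat 8.

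The row of lower count, NM_012892, had 18.8, 24.2, 26.8, 23.5 and 25.0 CPM in sham rats and 18.7, 11.7, 25.0, 17.5 and 13.3 CPM in stimulated rats. Apart from rat 8, which lay among the sham rats, the stimulated rats all lay below every sham rat. The log2 fold change was -0.46 (SE 0.18, 95% interval -0.85 to -0.07), with an unadjusted p of 0.0238 and an adjusted p of 0.432 by edgeR. With 1 rat left out it ran from -0.36 to -0.65, the latter without stimulated rat 8 (unadjusted p = 0.00138, adjusted p = 0.147), and the unadjusted p was above 0.05 without sham rat 3 (0.0585) or stimulated rat 10 (0.0599). Which reads the rows share, and how the authors' counting divided these, are not given in the sources used here, so the rows are uncertain as measures of separate isoforms.

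The lower row made up 39.8, 35.0, 41.0, 40.0 and 39.3% of the counts of both Asic2 rows in sham rats and 34.2, 36.1, 35.6, 34.7 and 39.1% in stimulated rats. Sham rat 2 lay among the stimulated rats, and stimulated rat 10 close to the other sham rats. The means were 39.0 ± 2.32% and 35.9 ± 1.89%, a difference of -3.06 percentage points with p = 0.0635 by a two-sided exact permutation test, whose smallest possible p is 0.00794. This 1 share was compared after the values of the rows had been seen. With both rows summed, the Asic2 log2 fold change was -0.34 with an adjusted p of 0.578 by edgeR.

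**Figure D2:**
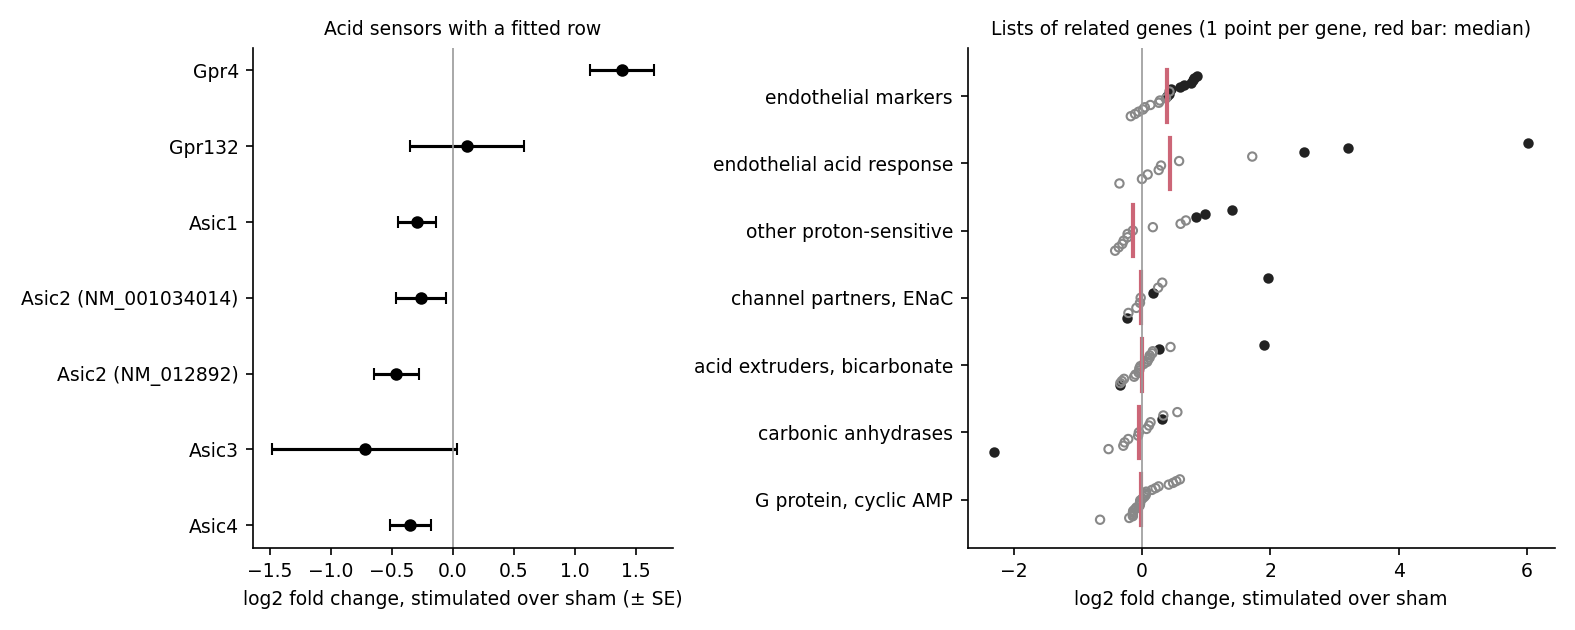
The horizontal axis is the log2 fold change of stimulated over sham rats for the acid sensors, with SE bars (left), and for each gene of the 6 lists of related genes and of the endothelial markers (right). On the right, filled points have an unadjusted p below 0.05 and open points have not, and the red bars are list medians, which run from -0.15 to 0.44.

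Genes that act around these sensors were taken from 6 lists of 111 symbols, of which 100 were in the matrix and 89 were tested. None had an adjusted p below 0.05 in the edgeR quasi-likelihood test, whereas edgeR's exact test called 2, Ptgs2 (adjusted p = 0.0209) and Scnn1a (adjusted p = 0.0415). At an unadjusted p below 0.05 in the quasi-likelihood test, 11 (12.4%) were higher, beside 6.7% of all features, and 3 (3.37%) were lower, beside 3.16%.

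Among other proton-sensitive receptors and channels, 3 of 13 tested genes had an unadjusted p below 0.05, all higher, beside 6.7% of all features. The list median was -0.15. Trpv4, a cation channel opened by warmth, swelling and lipids, was at 0.411 ± 0.152 CPM in sham rats against 1.10 ± 0.640 CPM in stimulated rats (log2 fold change 1.40, SE 0.49, adjusted p = 0.414 by edgeR). Kcnk1, a pore subunit of background potassium channels, was at 57.6 ± 7.59 and 103.6 ± 51.2 CPM (0.85, SE 0.26, adjusted p = 0.396). Its high stimulated rats were 7, 9 and 10, at 103.7, 184.7 and 110.4 CPM, while stimulated rats 6 and 8 lay within the sham range. Otop3, a proton channel, was at 0.815 ± 0.216 and 1.59 ± 1.05 CPM (0.98, SE 0.44, adjusted p = 0.483). The summed level of the list was 124.6 to 144.7 CPM in sham rats against 135.4 to 273.6 CPM in stimulated rats. Kcnk1 made up much of this sum, with 46.9 to 66.2 CPM in sham rats and 57.3 to 184.7 CPM in stimulated rats.

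Acid extruders and bicarbonate transporters had 2 of 20 tested genes higher and 1 lower at an unadjusted p below 0.05, with a median of 0.00. The shares of all features were 6.7% higher and 3.16% lower. Slc16a1, the monocarboxylate transporter that carries lactate with a proton and is rich in brain endothelium, was at 27.2 ± 1.65 CPM in sham rats against 32.6 ± 4.25 CPM in stimulated rats (log2 fold change 0.26, SE 0.11, adjusted p = 0.446 by edgeR). Its groups did not overlap, by the margin between 28.5 and 28.6 CPM, which 0.695% of all features also met. Slc16a3, the monocarboxylate transporter of glycolytic cells, stood at 14.7 CPM in stimulated rat 7 and at 0.995 to 1.84 CPM in the other stimulated rats (1.90, SE 0.72, adjusted p = 0.423). Slc4a3, an anion exchanger of neurons that lets bicarbonate out, was at 124.5 ± 9.31 and 97.8 ± 18.4 CPM (-0.35, SE 0.12, adjusted p = 0.414).

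Carbonic anhydrases, which interconvert carbon dioxide and bicarbonate, had 1 of 13 tested genes higher and 1 lower at an unadjusted p below 0.05. Of all features 6.7% were higher and 3.16% lower, and the list median was -0.05. Car3 was at 8.58 ± 4.53 CPM in sham rats against 1.72 ± 1.88 CPM in stimulated rats (log2 fold change -2.31, SE 0.70, adjusted p = 0.396 by edgeR), with overlap through sham rat 3 at 0.762 CPM. Car12, a membrane-bound form, was at 36.7 ± 4.58 and 45.4 ± 9.67 CPM (0.31, SE 0.14, adjusted p = 0.495). Car2, the cytosolic form of glia and the list's most counted gene, was at 130.7 ± 23.1 and 108.1 ± 21.9 CPM (-0.27, SE 0.15, adjusted p = 0.553).

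The G proteins and cyclic AMP enzymes through which Gpr4 and Gpr65 signal gave 0 of 24 tested genes at an unadjusted p below 0.05. Of all features 6.7% were higher and 3.16% lower at that p. In the list 12 of 24 had a log2 fold change above 0, beside 52.2% of all tested features. The most counted of them, Gnas, which codes for the stimulatory G protein subunit, was at 548.0 ± 35.9 CPM in sham rats against 507.4 ± 31.7 CPM in stimulated rats (-0.11, SE 0.07, adjusted p = 0.632 by edgeR). The summed level of the list was 2195 to 2311 CPM in sham rats against 2105 to 2238 CPM in stimulated rats.

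Genes of the inflammatory programme that acid drives through Gpr4 in cultured endothelium had 3 of 10 tested members higher at an unadjusted p below 0.05. None was lower, and the median was 0.44. The shares of all features were 6.7% higher and 3.16% lower. Many genes of this list are also made by neurons, glia and immune cells, so the list does not mark endothelium. Ptgs2, the inducible cyclooxygenase, was at 15.6 ± 1.40 CPM in sham rats, while stimulated rats 6 to 10 held 14.3, 104.5, 11.8, 227.4 and 90.4 CPM (log2 fold change 2.52, SE 0.62, adjusted p = 0.376 by edgeR). Atf3, a stress-induced transcription factor, was at 0.816 ± 0.523 and 7.68 ± 10.8 CPM (3.20, SE 0.91, adjusted p = 0.380). Ccl2, a chemokine that draws monocytes, had 6.02 (SE 1.75, adjusted p = 0.389), and stimulated rat 7 alone held 37.1 CPM of it while the other stimulated rats held at most 0.568 CPM. The endothelial adhesion molecules of the list differed among themselves. Icam1 (0.58, SE 0.31) was at 8.96, 7.19 and 8.77 CPM in stimulated rats 7, 9 and 10, above all sham rats, and at 2.53 and 4.21 CPM in rats 6 and 8. Vcam1 (0.00, SE 0.11) and Sele (-0.35, SE 0.25) had fold changes near or below 1.

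Partners of the acid-sensing channels and the related epithelial sodium channel subunits had 2 of 9 tested genes higher and 1 lower at an unadjusted p below 0.05. Of all features 6.7% were higher and 3.16% lower. Pick1, the PDZ protein that binds the tails of Asic1 and Asic2, was at 35.6 ± 0.864 CPM in sham rats against 30.4 ± 1.79 CPM in stimulated rats (log2 fold change -0.23, SE 0.08, adjusted p = 0.416 by edgeR). Its lowest sham rat, at 34.7 CPM, lay above its highest stimulated rat, at 32.6 CPM, as the groups did in this direction in 0.597% of all features. Dlg4, the postsynaptic scaffold PSD-95, was at 613.5 ± 26.4 and 692.8 ± 63.6 CPM (0.18, SE 0.08, adjusted p = 0.472). Scnn1a, the alpha subunit of the epithelial sodium channel, was at 0.427 ± 0.206 and 1.69 ± 1.03 CPM (1.96, SE 0.50, adjusted p = 0.376). Nsf, the vesicle fusion ATPase and the most counted gene of the list, was at 735.6 ± 26.9 and 691.3 ± 41.5 CPM (-0.09, SE 0.07, adjusted p = 0.681).

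Since Gpr4 is known from endothelium, its level was set beside 19 endothelial marker genes of the matrix. In bulk tissue more cells of a type and more RNA per cell cannot be told apart. None of the markers was at 0 in every rat. The summed level of the markers was 419.2 to 445.7 CPM in sham rats and 465.5 to 778.2 CPM in stimulated rats. Of the markers, 9 of 19 had an unadjusted p below 0.05, all higher, beside 6.7% of all features, and their median log2 fold change was 0.38. None had a log2 fold change above that of Gpr4, which, unlike the markers, was picked for its rise. The range was -0.18 for Sox17 to 0.85 for Adgrl4.

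The markers did not move as 1 block. Pecam1, an adhesion molecule of endothelial junctions, was at 13.5 ± 2.42 CPM in sham rats against 23.7 ± 6.64 CPM in stimulated rats (log2 fold change 0.81, SE 0.19, adjusted p = 0.376 by edgeR). It and Adgrl4 were the 2 of 19 whose groups did not overlap, beside 0.695% of all features in this direction. Both were named for it after their values were seen. Slc2a1, the glucose transporter of the blood-brain barrier, which other brain cells carry too, was at 109.3 ± 8.25 and 184.3 ± 76.5 CPM (0.76, SE 0.21, adjusted p = 0.380). Cldn5, the tight junction claudin of that barrier, was at 72.8 ± 5.90 and 87.2 ± 36.4 CPM (0.26, SE 0.20, adjusted p = 0.691). Slco1a4, an organic anion carrier of brain capillaries, was at 36.4 ± 2.13 and 35.1 ± 16.8 CPM (-0.06, SE 0.32, adjusted p = 0.970), with stimulated rat 7 at 8.22 CPM.

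Relative to the summed markers, Gpr4 was higher in each stimulated rat than in any sham rat. This ratio reuses the Gpr4 values that were picked for not overlapping, so its separation is no further support. Per 1000 CPM of endothelial markers there were 4.81, 5.50, 6.53, 6.12 and 6.96 CPM of Gpr4 in sham rats and 7.78, 11.5, 10.0, 12.7 and 14.3 CPM in stimulated rats. The means were 5.98 ± 0.848 and 11.3 ± 2.49, and the mean log2 ratio differed by 0.89. Among stimulated rats Gpr4 and the summed markers had the same order, from rat 10 down through 7, 9 and 8 to rat 6.

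That order rested on Slc2a1. Without this marker the sum was 315.1 to 334.5 CPM in sham rats and 351.9, 322.7, 406.2, 340.6 and 588.7 CPM in stimulated rats 6 to 10, so that the groups overlapped through rat 7. Gpr4 per 1000 CPM of the remaining markers was 6.46 to 9.27 in sham rats and 10.3 to 22.3 in stimulated rats, with rat 7 the highest, and the mean log2 ratio differed by 1.03.

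**Figure D3:**
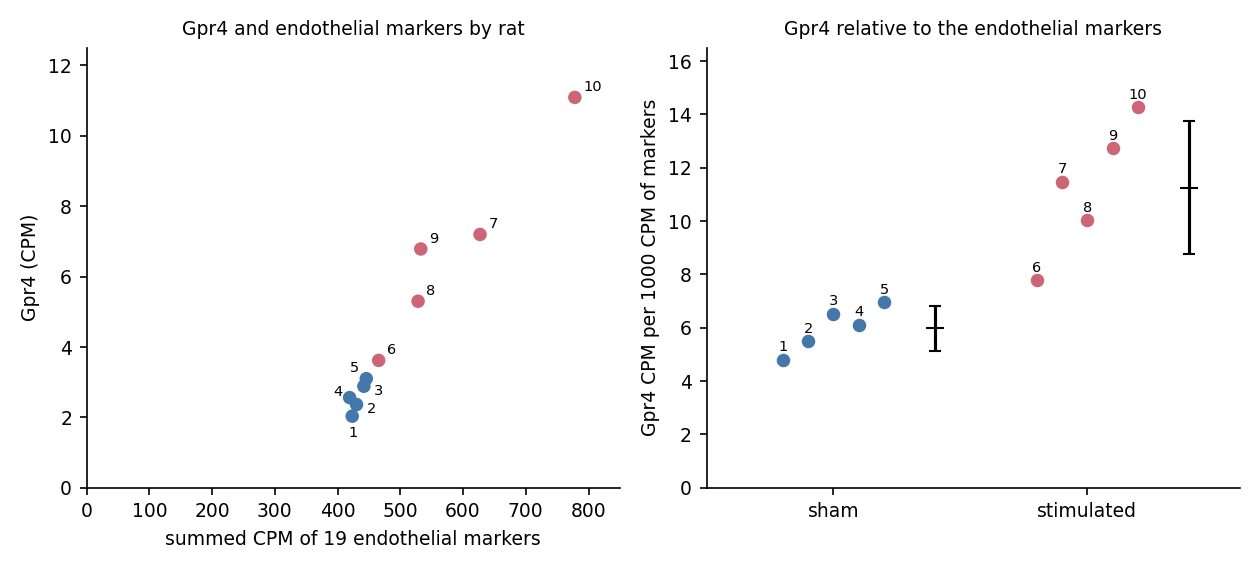
The left panel plots Gpr4 against the summed level of 19 endothelial markers, both in TMM-scaled CPM, and the right panel Gpr4 per 1000 CPM of these markers with the mean ± SD (n = 5). Numbers are rats, with sham in blue and stimulated in red, and on both axes of the left panel all 5 stimulated rats lie above all 5 sham rats.

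Markers of other cells moved with the groups too, and their part in the Gpr4 difference was not tested. Pericyte and smooth muscle markers had 4 of 10 genes higher at an unadjusted p below 0.05, beside 6.7% of all features (median 0.50), with summed levels of 124.5 to 152.7 CPM in sham rats against 135.0 to 226.2 CPM in stimulated rats. The 4 were Kcnj8 (0.95, SE 0.31), Tagln (0.81, SE 0.25), Acta2 (0.69, SE 0.22) and Abcc9 (0.61, SE 0.18), named after their values were seen. The 3 most counted markers of the list had smaller values, with Cspg4 at 0.01, Pdgfrb at 0.15 (SE 0.17) and Notch3 at -0.18 (SE 0.13). Microglia and macrophage markers, of cells known for Gpr65 and Gpr132, had 4 of 15 genes higher, beside the same 6.7% (median 0.35), with sums of 739.9 to 860.3 and 780.4 to 1162 CPM. Among the most counted of these genes were Ctss (0.38, SE 0.11) and Csf1r (0.19).

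Astrocyte markers had 4 of 10 genes higher at an unadjusted p below 0.05, beside 6.7% of all features (median 0.07). Their summed level was 4707 to 5357 CPM in sham rats and 4743, 9610, 4962, 5996 and 8934 CPM in stimulated rats 6 to 10, so that rats 10 and 7, the highest in Gpr4, were the highest here too. That lead rested on Gfap, the intermediate filament of astrocytes. Gfap alone was at 1327 to 1927 CPM in sham rats and at 1326, 6469, 1375, 2079 and 5396 CPM in stimulated rats 6 to 10. Gfap had a log2 fold change of 1.06 (SE 0.38), and Aqp4, the water channel of astrocytes, had 0.49 (SE 0.13). Of the 10 markers 3 had a log2 fold change below 0. Among these was Aldh1l1 (-0.27, SE 0.23), at 16.4 CPM in stimulated rat 7 and at 40.5 CPM or more in sham rats. The groups did not overlap for Aqp4, as in 0.695% of all features in this direction. Of the immediate early genes 11 of 13 were higher at an unadjusted p below 0.05, beside the same 6.7%. Their sums were 345.9 to 395.9 CPM in sham rats and 380.9, 1150, 370.1, 2084 and 899.1 CPM in stimulated rats 6 to 10.

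Lymphocyte markers were scarce, with summed levels of 5.32 to 8.87 CPM in sham rats against 5.11 to 13.3 CPM in stimulated rats and 3 of 12 genes with enough counts to be tested. Cd4, which macrophages of rats carry too, had a log2 fold change of 0.76 (SE 0.32), Lck of -0.95 (SE 0.36) and Cd2 of 0.50 (SE 0.64). Cd8a had no count in any sham rat and 0 to 4 counts in stimulated rats. Cd3g had none in any stimulated rat and 0 to 4 counts in sham rats. Neither had enough counts to be tested, so no difference can be read from them. Neuronal markers, of the cells that carry Asic1, Asic2 and Asic4, had 0 of 10 genes at an unadjusted p below 0.05. Of all features 6.7% were higher and 3.16% lower at that p. Summed neuronal markers were at 4814 to 5252 CPM in sham rats against 4706 to 5479 CPM in stimulated rats. Single neuronal markers went apart, as in stimulated rat 7, where Asic1 was lowest. There Map2 was at 869.1 CPM, the highest of all 10 rats, and Rbfox3 at 124.1 CPM and Nefm at 290.4 CPM, the lowest.

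The genes whose levels followed Gpr4 most closely were sought among 11205 genes with a symbol and a mean of at least 1 CPM, by Pearson's r of log2 CPM over the 10 rats, as a description. The 5 closest were Hadhb (r = 0.96), a subunit of the mitochondrial enzyme of fatty acid oxidation, Cd93 (0.95), a surface lectin of endothelium and myeloid cells, Scnn1a (0.95), Nt5e (0.95), the ecto-enzyme that makes adenosine from AMP, and Lrrc32 (0.95), a docking receptor of latent TGF-beta. Such an r includes the difference between groups for which Gpr4 was picked. After subtraction of each group's mean it was 0.90 for Hadhb, 0.94 for Cd93, 0.90 for Scnn1a, 0.85 for Nt5e and 0.88 for Lrrc32. Cd93 was at 7.13 ± 1.13 CPM in sham rats against 21.8 ± 17.1 CPM in stimulated rats (log2 fold change 1.61, SE 0.40). Its groups did not overlap, as in 0.695% of all features in this direction. Cd93 was named for its likeness to Gpr4, which was itself picked for such a separation.

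With each group's mean subtracted, the closest genes included Plpp7 (r = 0.95), Slc30a3 (0.94), the zinc transporter of synaptic vesicles, Cd93 (0.94) and Cap1 (0.93), a regulator of actin. Cd93 was among the 5 closest by both measures. By the first measure Fos had an r of 0.89 and by the second of 0.77. The 19 endothelial markers ran from -0.38 (Sox17) to 0.91 (Adgrl4) by the first and from -0.28 (Sox17) to 0.85 (Esam) by the second. Sox17, Ocln, Slco1a4, Emcn and Abcb1a were below 0 by both. For the channels r was -0.61 for Asic1, -0.60 for Asic2 and -0.61 for Asic4 over the 10 rats, and -0.35, -0.53 and -0.21 with group means subtracted.

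**Figure D4:**
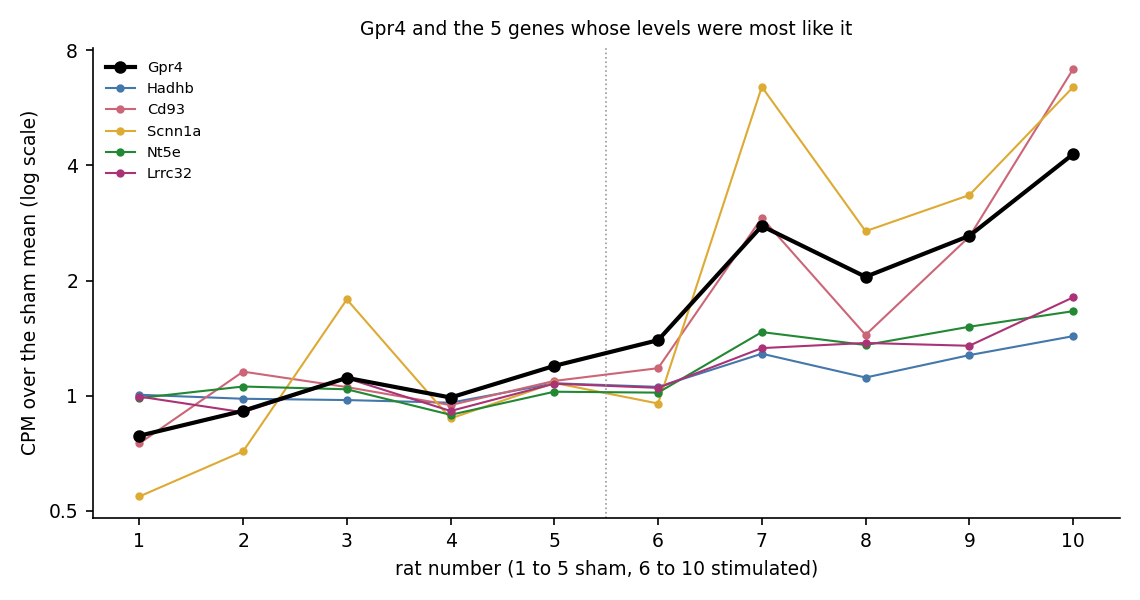
The vertical axis, on a log scale, is the CPM of each gene over its sham mean, for Gpr4 and the 5 genes closest to it in each of the 10 rats (sham 1 to 5, stimulated 6 to 10). Lines only join the points of 1 gene, since rats have no order within a group. Cd93 and Gpr4 are both highest in stimulated rat 10.

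The matched genes beside Gpr4 on its chromosome, as ordered in the GRCr8 annotation, had log2 fold changes below that of Gpr4, and their groups overlapped. For Gipr, the receptor for the gut hormone GIP, the log2 fold change was -0.10 (SE 0.39, adjusted p = 0.953 by edgeR). Eml2, a microtubule-binding protein, was at 125.8 ± 5.53 CPM in sham rats against 104.9 ± 14.6 CPM in stimulated rats (-0.26, SE 0.10, adjusted p = 0.420), the opposite direction to Gpr4. Vasp, an actin regulator, had 0.30 (SE 0.21, 95% interval -0.14 to 0.75, adjusted p = 0.649). Its stimulated rats 10 and 7 were at 24.0 and 18.7 CPM, above the highest sham rat at 14.2 CPM, and the other stimulated rats lay within the sham range. Opa3 had no matched row. None of these genes overlaps the span of Gpr4.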

How the data were processed

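Poly-A mRNA of 10 rats was sequenced as single reads of 36 cycles. The authors aligned reads with BWA to rn4 and deposited whole-number counts of reads for each RefSeq transcript. Whether strand was used and how reads shared by transcripts were counted are not given in the sources used here. The row of unaligned reads (32.0 to 45.1%) was left out of library sizes. All columns were used. Symbols came from the GRCr8 RefSeq gene table and covered 57.8% of tested features. Features below the 30th percentile of summed counts (under 46) were dropped. edgeR 4.0.16 (R 4.3.3) was fitted to all 10 libraries with TMM and no covariate, by the quasi-likelihood test with Benjamini-Hochberg adjustment, after tests on simulated data. Standard errors were taken from the same fit. Alternatives used limma 3.58.1 (limma-voom), DESeq2 1.42.0, edgeR's exact test, other filters and scalings, and each rat left out. The study's methods count fewer stimulated rats for this assay than the labels and do not say which was left out, so all were kept.

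The members and gene lists were chosen with earlier results of these data known. Genes named were all members, list members with an unadjusted p below 0.05 (at most 5 per list), the most counted gene of each list (3 for endothelial, pericyte, microglia and lymphocyte markers), the 5 closest to Gpr4 by each measure, its neighbours, and Fos; other names were added after values were seen. Some items that this rule names are not reported here. The ratio without Slc2a1 was added after seeing the data. Of the other marker lists, median log2 fold changes were -0.08 for blood cells, 0.01 for interneurons, 0.15 for dentate granule cells, -0.01 for pyramidal cells, -0.16 for oligodendrocytes, 0.41 for meningeal fibroblasts, 0.37 for choroid plexus and 1.19 for immediate early genes.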

Additional observations from a re-analysis of the deposited data

Results flagged for a closer look

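In 3 of 46 groups of 5 rats 1 rat stood apart by Dixon's 95% criterion, where chance alone gives about 2.3. The lower Asic2 row made up 35.0% of the counts of both rows in sham rat 2, beside 39.3 to 41.0% in the other sham rats. The summed level of dentate granule cell markers was 502.2 CPM in stimulated rat 9 and 319.9 to 341.1 CPM in the other stimulated rats. The summed level of meningeal fibroblast markers was 120.2 CPM in stimulated rat 8 and 44.0 to 64.0 CPM in the other stimulated rats.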

How the results depend on the processing

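The log2 fold change of Gpr4 was 1.14 to 1.53 with 1 rat left out and 1.28 to 1.40 under the other alternatives. That of Gpr4 over the endothelial markers was 0.80 to 1.02 with 1 rat left out and 0.89 to 1.03 otherwise. Among the other tested acid sensors the count at an adjusted p below 0.05 was 0 under each of 18 alternatives, of which 2 gave no value for Asic3 and DESeq2 no adjusted p for Gpr132 and Asic3, and at an unadjusted p below 0.05 it was 0 to 2 with 1 rat left out. It was 1 without sham rat 1 (Asic4), 1 without stimulated rat 6 (Asic1), 2 without stimulated rat 8 (Asic1 and Asic2) and 1 without stimulated rat 9 (Asic4). The Gpr132 log2 fold change ran from -0.10 to 0.58 with 1 rat left out. It was below 0 without sham rat 2 (-0.10) or stimulated rat 8 (-0.027). Those of Asic1, Asic2, Asic3 and Asic4 stayed below 0 in every alternative that gave a value, from -0.39 to -0.17, -0.45 to -0.15, -1.39 to -0.41 and -0.46 to -0.28. Over all features the count at an adjusted p below 0.05 was 33 by DESeq2 and 90 by edgeR's exact test, against 0, and 0 with each rat left out. Of the genes in the 6 lists the exact test called 2, Ptgs2 and Scnn1a. At an unadjusted p below 0.05 the lists held 10 to 20 genes with 1 rat left out. The cause of these differences was not tested. Depth limits Gpr65 and Asic3, whose libraries hold 11 counts or fewer. No paired analysis was possible because the labels give each rat its own number.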
